A study of Arabidopsis thaliana with 12 samples.

Results

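Transcript levels of 10 genes of the wall-associated kinase (WAK) family were followed in the root transcriptome of Arabidopsis thaliana: WAK1 (AT1G21250), WAK2 (AT1G21270), WAK3 (AT1G21240), WAK4 (AT1G21210), WAK5 (AT1G21230) and the WAK-like genes WAKL2 (AT1G16130), WAKL4 (AT1G16150), AT1G16260, RFO1 (AT1G79670, also known as WAKL22) and WAKL10 (AT1G79680). They were taken by their gene identifiers from a list of members, and all 10 were among the 23106 genes of the deposited tables. The seedlings were segregants of a cross between the T-DNA insertion line cork1-2 and a wild type that expresses the calcium reporter aequorin. One group of segregants was homozygous for the insertion in CORK1 (HO), which lies near the 3′ end of the gene, and the other was the segregated wild type (SWT). Roots received 1 mL per dish of 10 µM cellotriose (CT), a short chain of glucose released from cellulose, or water for 1 h. This gave HO with CT, HO in water, SWT with CT and SWT in water, with 3 RNA-seq libraries each and 16 seedlings per library. The comparisons ask which transcripts CT changes in roots and whether the change needs CORK1. HO stands for 1 insertion allele in these libraries, and both genotypes come from the same cross. Seedlings grew for 10 days on MS medium and were moved to PNM medium before the treatment.

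WAKs are receptor-like kinases of the plasma membrane whose extracellular part lies in the cell wall. WAK1 and WAK2 bind pectin, and WAK1 perceives oligogalacturonides, the fragments released when pectin is broken down. The related WAKL proteins share the intracellular kinase, and several members of the family are known for roles in defence, cell expansion and the response to minerals. CORK1 is a different kind of receptor kinase, with leucine-rich repeats and a malectin domain. The study reports it as required for responses to the breakdown products of cellulose.

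All 10 genes lie on chromosome 1. WAK4, WAK5, WAK3, WAK1 and WAK2 stand in this order in a tandem array of 24.8 kb at chr1:7423704-7448483 (TAIR10.1, RefSeq annotation). WAKL2 and WAKL4 belong to an array of 6 genes, WAKL6 to WAKL5, without the shorter WAKL7 beside it, over 20.3 kb at chr1:5518219-5538501. RFO1 and WAKL10 are neighbours 616 bases apart at chr1:29976725-29982819, and AT1G16260 lies alone at chr1:5559498-5562192. WAK4 has 4 exons and the other genes have 3. The coding sequences of WAK1 to WAK5 were 78.7% to 85.2% identical in pairs, WAKL2 and WAKL4 were 87.2% identical, and RFO1 and WAKL10 64.8%.

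The 250 bases before the annotated gene start are printed for the 4 members that carry the results, WAKL10, WAK5 and WAKL4 because they rose most with CT and RFO1 because it had the highest level per kilobase of exon. The sequence is that of TAIR10.1 from RefSeq, on the strand of the gene from 5′ to 3′, at chr1:29982820-29983069 (minus strand) for WAKL10, chr1:7429645-7429894 (plus strand) for WAK5, chr1:5532048-5532297 (plus strand) for WAKL4 and chr1:29979357-29979606 (minus strand) for RFO1. Capitals mark the core of the W-box, the element that WRKY transcription factors bind, as TTGAC or, on the other strand, GTCAA.
WAKL10: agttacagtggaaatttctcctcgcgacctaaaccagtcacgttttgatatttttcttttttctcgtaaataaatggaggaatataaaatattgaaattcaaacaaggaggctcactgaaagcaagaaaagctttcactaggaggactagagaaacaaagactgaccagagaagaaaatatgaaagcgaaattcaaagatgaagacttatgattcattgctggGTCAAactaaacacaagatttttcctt
WAK5: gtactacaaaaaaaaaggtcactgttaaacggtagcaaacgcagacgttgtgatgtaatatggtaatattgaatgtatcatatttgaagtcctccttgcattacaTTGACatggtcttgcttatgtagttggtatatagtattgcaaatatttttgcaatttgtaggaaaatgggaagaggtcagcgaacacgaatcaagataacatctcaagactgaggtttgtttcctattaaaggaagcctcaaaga
WAKL4: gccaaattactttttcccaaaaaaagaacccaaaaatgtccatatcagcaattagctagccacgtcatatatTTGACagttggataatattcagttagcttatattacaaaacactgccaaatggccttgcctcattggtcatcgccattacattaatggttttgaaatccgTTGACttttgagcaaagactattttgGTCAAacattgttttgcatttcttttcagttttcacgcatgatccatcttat
RFO1: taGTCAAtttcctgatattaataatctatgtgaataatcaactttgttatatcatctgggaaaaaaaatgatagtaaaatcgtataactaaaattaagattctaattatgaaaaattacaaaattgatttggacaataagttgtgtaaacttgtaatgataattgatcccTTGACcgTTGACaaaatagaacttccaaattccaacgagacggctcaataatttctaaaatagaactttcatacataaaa
The core stood once before WAKL10 and WAK5 and 3 times before WAKL4 and RFO1. It was present in 7 of the 10 windows (70.0%), against 44.9% of the same windows of 27443 genes, and no test was made of this share. WAK3 had 2 cores, WAK2 and WAK4 had 1, and WAK1, WAKL2 and AT1G16260 had none. The longer forms TTGACC and TTGACT, on both strands, were found in 5 of the 10 windows and in 28.4% of all. Of the members that rose with CT in SWT, AT1G16260 had no core in this window, and WAK2, WAK3 and WAK4, which did not pass that test, had 1 or 2. The window of WAKL2 lies within WAKL1, and those of WAK3 and WAK4 hold parts of other annotated genes.

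**Figure D1:**
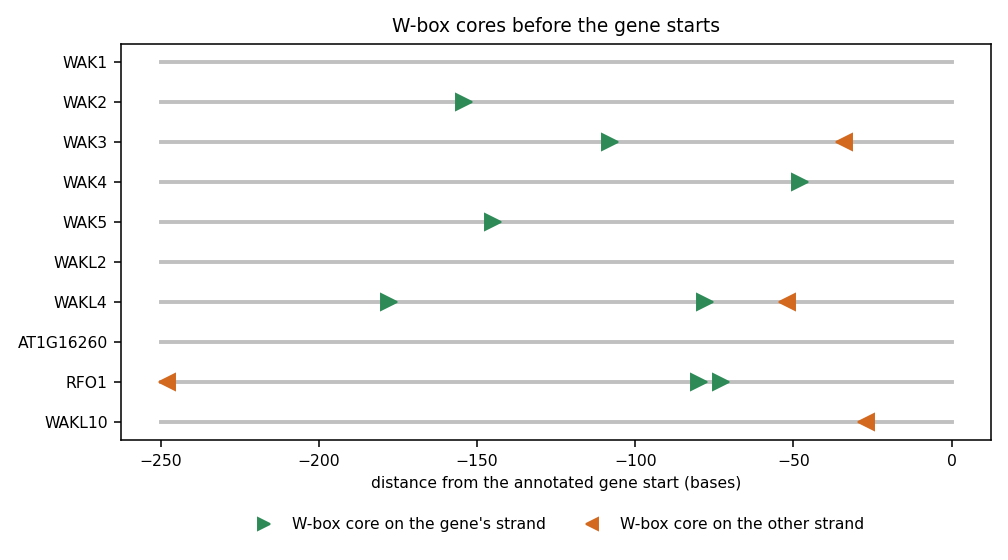
W-box cores in the 250 bases before the start of each of the 10 genes. The x axis is the distance from the annotated gene start in bases, a triangle pointing right is TTGAC on the strand of the gene and one pointing left is the core on the other strand. WAKL4 and RFO1 have 3 cores each, and WAK1, WAKL2 and AT1G16260 have none.

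The deposited tables list for each gene a normalized read count averaged over the 12 libraries, and log2 fold changes with their standard errors (SE), but no value per library. The level of each gene in each group was therefore recovered from these numbers, and every level below is such a group mean in normalized read counts with its 95% interval. The spread between replicates was recovered as well, as the coefficient of variation (CV) of a library within its group. Over all 12 libraries the mean count was 1192 for RFO1, 367.6 for WAKL4, 195.9 for WAKL2, 139.5 for WAKL10, 86.2 for WAK4, 42.8 for AT1G16260, 34.0 for WAK5, 19.1 for WAK2, 4.65 for WAK3 and 1.78 for WAK1, and the median gene of the tables had 282.8. By this measure of depth 8 of the 10 genes had fewer reads than the median gene. The recovered CV in SWT in water was 13.2% for RFO1, 22.7% for WAKL4 and 39.0% for WAKL10, and it was 90.8% for WAK3 and 208% for WAK1, and the estimates of these last genes are imprecise. In whole roots fewer expressing cells and less RNA per cell cannot be told apart.

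The line was checked by CORK1 itself. CORK1 had a level of 301.5 in HO with CT, 255 in HO in water, 1999 in SWT with CT and 1413 in SWT in water. In water the HO level was 18.1% of the SWT level, a log2 fold change of −2.47 (SE 0.16). All 7 root markers were detected, with mean counts between 175 and 19043, and none passed a test in any comparison. The summed level of the 7 was 24415 in HO with CT, 23084 in HO in water, 20812 in SWT with CT and 21221 in SWT in water. Shoot tissue was followed by 5 genes of photosynthesis, whose summed level was 6466 in HO with CT, 6752 in HO in water, 3844 in SWT with CT and 6083 in SWT in water, and each of the 5 was detected.

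Of the members, CT raised WAKL10, WAK5 and WAKL4 in SWT roots by 9.90-fold, 5.18-fold and 3.66-fold. AT1G16260 and RFO1 rose by less, 2.02-fold and 1.505-fold. In HO roots none of the 10 genes passed the test. Calls required an adjusted p below 0.05 in the authors' DESeq2 Wald test together with a change of at least 2.51-fold, which is the fold criterion of the study. In SWT 3 of the 10 members were called higher and 0 lower, where 2.58% of all genes tested were called higher. Without the fold criterion 5 members rose, against a background of 8.30%, and 9 of the 10 had an adjusted p. With a t distribution of 8 degrees of freedom in place of the normal, RFO1 had an adjusted p of 0.0894 and AT1G16260 of 0.2. With the statistics divided by their spread over all genes these values were 0.146 and 0.454, so the rise of both genes depends on the test used. When the test was made against the fold criterion itself, WAKL10 kept its call (3 members called before, 1 after) and WAK5 and WAKL4 lost theirs. The median log2 fold change was 0.80 over the 10 members, 0.59 without WAK1, which had few reads, and −0.01 over all genes. Without the fold criterion 2 of the 5 shoot markers passed the test in the same comparison, both lower in SWT with CT. By this rule 702 of 21759 genes were lower. With the fold criterion 0 shoot markers were called, and all 5 had a log2 fold change between −0.90 and −0.50. Their part in the change of the WAK genes was not tested.

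**Figure D2:**
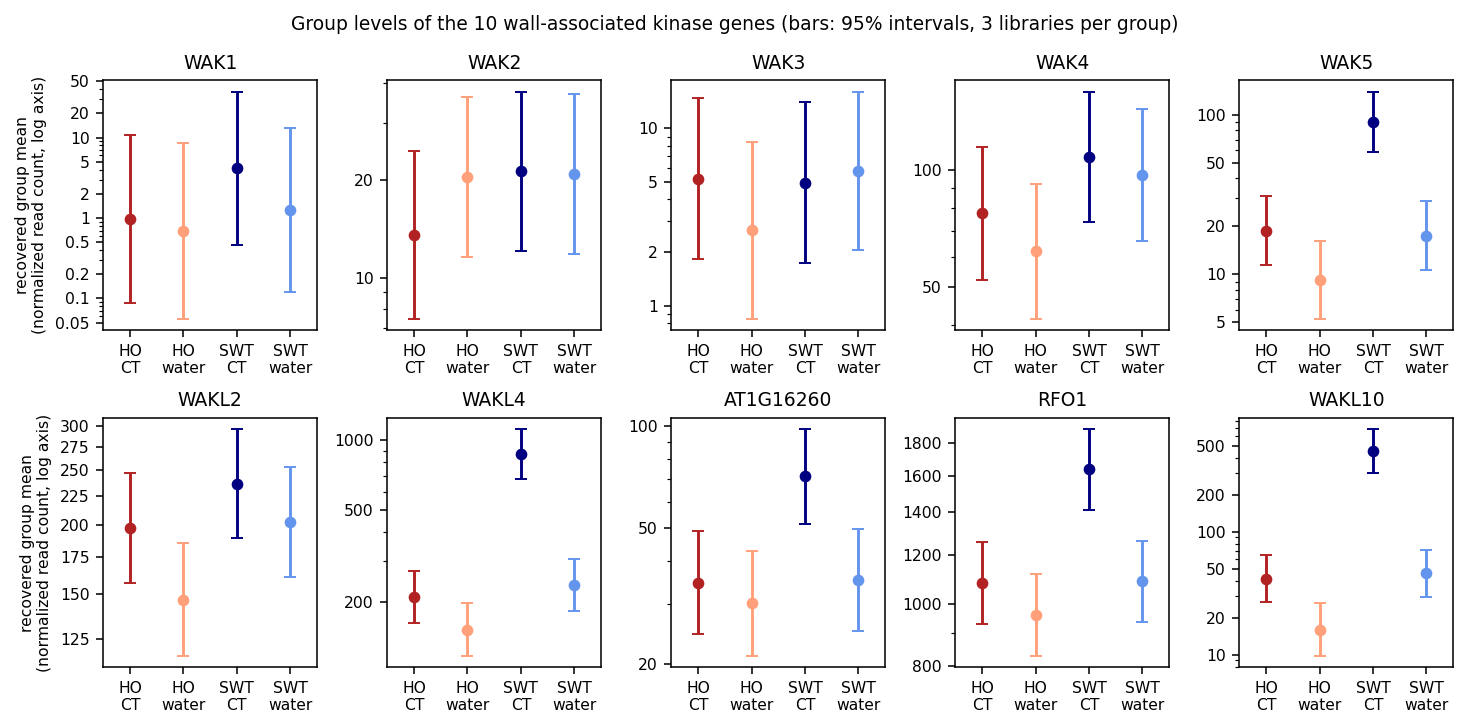
Recovered group means of the 10 genes in normalized read counts, on a log axis of its own for each gene. Points are group means of 3 libraries and bars their 95% intervals. For WAKL10, WAK5, WAKL4, AT1G16260 and RFO1 the interval of SWT with CT lies above those of the other groups.

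WAKL10, a WAK-like kinase known for a guanylyl cyclase activity measured in vitro, had the largest SWT fold change among the members called. Its level was 41.6 (26.7 to 64.8) in HO with CT, 16.0 (9.74 to 26.3) in HO in water, 455 (301 to 686) in SWT with CT and 45.9 (29.5 to 71.4) in SWT in water. The interval of SWT with CT overlapped none of the others, HO with CT and SWT in water had nearly the same level, and HO in water was the lowest. On the log2 scale CT over water was 1.38 (SE 0.49) in HO, with an adjusted p of 1.00 at an unadjusted p of 0.0050, and 3.31 (SE 0.44) in SWT, with an adjusted p of 7.22e-12. WAKL10 was the one member with an unadjusted p below 0.05 for CT in HO. The HO response was smaller than the SWT response by 1.93 on the log2 scale (SE 0.66), which did not pass the adjustment over all genes (z test, adjusted p = 0.0763).

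RFO1, the neighbour of WAKL10 and a gene that gives resistance to the fungus Fusarium oxysporum, had the highest level per kilobase of exon among the members and a smaller fold change. Its level was 1082 (932 to 1255) in HO with CT, 962 (829 to 1117) in HO in water, 1637 (1412 to 1897) in SWT with CT and 1088 (937 to 1262) in SWT in water. Only the SWT group with CT stood apart from the other 3 groups, whose intervals overlapped. The log2 fold change with CT was 0.17 (SE 0.16) in HO and 0.59 (SE 0.15) in SWT, the SWT value with an adjusted p of 0.00219 by the Wald test and below the fold criterion. The difference between the responses was −0.42 (SE 0.22, z test, adjusted p = 0.439), with a 95% interval of −0.85 to 0.01. The exons of RFO1 overlap AT1G79660 and AT1G09903 on the opposite strand, and the strand setting of the counting is not stated in the sources used here, which leaves its counts uncertain. AT1G79660 had a log2 fold change of 0.07 (SE 0.12) in HO and 0.12 (SE 0.12) in SWT.

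WAKL4, known for a role in the response of roots to minerals, came next to RFO1 in level per kilobase of exon. Its level was 211 (163 to 273) in HO with CT, 153 (118 to 199) in HO in water, 869 (678 to 1114) in SWT with CT and 237 (184 to 306) in SWT in water. The group SWT with CT lay far above the other 3. With CT it changed by 0.47 (SE 0.27) on the log2 scale in HO and 1.87 (SE 0.26) in SWT, with adjusted p-values of 1.00 and 7.28e-11 by the Wald test. WAKL4 was the one member whose responses differed between genotypes after adjustment, by −1.41 (SE 0.38, 95% interval −2.15 to −0.67, z test, adjusted p = 0.00795). Over all genes 3.31% had a smaller response in HO by this test, and 1 of 10 members is too few to read as a result about the members as a group. With a t distribution of 8 degrees of freedom in place of the normal the adjusted p was 0.241, and the call was lost.

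WAKL2 is the closest relative of WAKL4 among the members, and it did not pass the test in either genotype. Its level was 197 (157 to 248) in HO with CT, 147 (116 to 185) in HO in water, 237 (189 to 296) in SWT with CT and 202 (161 to 254) in SWT in water. The intervals overlapped for every pair of groups except HO in water and SWT with CT. Its log2 fold change with CT was 0.43 (SE 0.24) in HO and 0.23 (SE 0.23) in SWT. The 95% interval of the SWT response of WAKL2, −0.23 to 0.69, does not overlap that of WAKL4, 1.36 to 2.39, and no 75-base stretch of the exons of either gene is repeated elsewhere in the genome. The exons of WAKL2 overlap those of WAKL1 on the same strand, so counts of WAKL2 are uncertain, and WAKL1 had a log2 fold change of 0.01 (SE 0.25) in HO and −0.38 (SE 0.24) in SWT.

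AT1G16260, annotated as a WAK family protein, had a level of 34.6 (24.4 to 49.0) in HO with CT, 30.1 (21.1 to 43.0) in HO in water, 71.2 (51.7 to 98.1) in SWT with CT and 35.2 (24.9 to 49.9) in SWT in water. The 3 other groups lay together below SWT with CT. Its log2 fold change was 0.20 (SE 0.37) in HO and 1.02 (SE 0.35) in SWT, with an adjusted p of 0.0345 in SWT by the Wald test and a change below the fold criterion. The HO response minus the SWT response was −0.81 (SE 0.51, z test, adjusted p = 0.600). It overlaps AT1G16250 on the opposite strand, which had a log2 fold change of −0.02 (SE 0.21) in HO and −0.16 (SE 0.21) in SWT.

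Among WAK1 to WAK5, WAK5 was the one gene that passed the test for CT in SWT. Its level was 18.8 (11.5 to 30.9) in HO with CT, 9.26 (5.28 to 16.2) in HO in water, 90.4 (58.4 to 140) in SWT with CT and 17.4 (10.6 to 28.7) in SWT in water. As for WAKL10, HO with CT and SWT in water were close and HO in water had the lowest mean. CT over water was 1.03 (SE 0.55) on the log2 scale in HO and 2.37 (SE 0.49) in SWT, with an adjusted p of 3.18e-05 in SWT by the Wald test. The difference between the responses was −1.35 (SE 0.74, 95% interval −2.79 to 0.09, z test, adjusted p = 0.486).

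WAK4, whose antisense suppression is known to impair cell elongation and lateral roots, had the highest level per kilobase of exon of WAK1 to WAK5 in water. Its level was 77.5 (52.3 to 115) in HO with CT, 61.9 (41.5 to 92.3) in HO in water, 108 (73.4 to 160) in SWT with CT and 97.2 (65.9 to 144) in SWT in water. All 4 intervals overlapped, and the log2 fold change with CT was 0.32 (SE 0.41) in HO and 0.15 (SE 0.40) in SWT. WAK2, a pectin receptor needed for cell expansion in roots, had a level of 13.6 (7.47 to 24.7) in HO with CT, 20.5 (11.6 to 36.2) in HO in water, 21.3 (12.1 to 37.5) in SWT with CT and 20.9 (11.9 to 37.0) in SWT in water. Its log2 fold change was −0.59 (SE 0.61) in HO and 0.02 (SE 0.59) in SWT, so that a change of 2-fold in either direction lies within the SWT interval of −1.14 to 1.18. WAK2 overlaps AT1G21280 on the opposite strand and its counts are uncertain.

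WAK3 and WAK1 were at the limit of detection. WAK3 had a level of 5.22 in HO with CT, 2.67 in HO in water, 4.94 in SWT with CT and 5.76 in SWT in water, and log2 fold changes with CT of 0.97 (SE 1.14) in HO and −0.22 (SE 1.08) in SWT. WAK1, the receptor of oligogalacturonides, had a level of 0.98 in HO with CT, 0.70 in HO in water, 4.17 in SWT with CT and 1.27 in SWT in water. Summed over the 3 libraries of a group these are 2.94, 2.09, 12.5 and 3.80 normalized counts in the same order, of which both HO sums are below a floor of 3 counts. No fold change of WAK1 is therefore given, and it is left out of the counts of directions and the medians of the comparisons with HO. The authors' table gave WAK1 no adjusted p in SWT. A change of these genes was not detectable at this depth. Their reads may also be shared with near-identical copies, since 12.6% of the 75-base stretches of the WAK3 exons, 4.08% of those of WAK1 and 1.81% of those of WAK2 occur elsewhere in the genome.

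**Figure D3:**
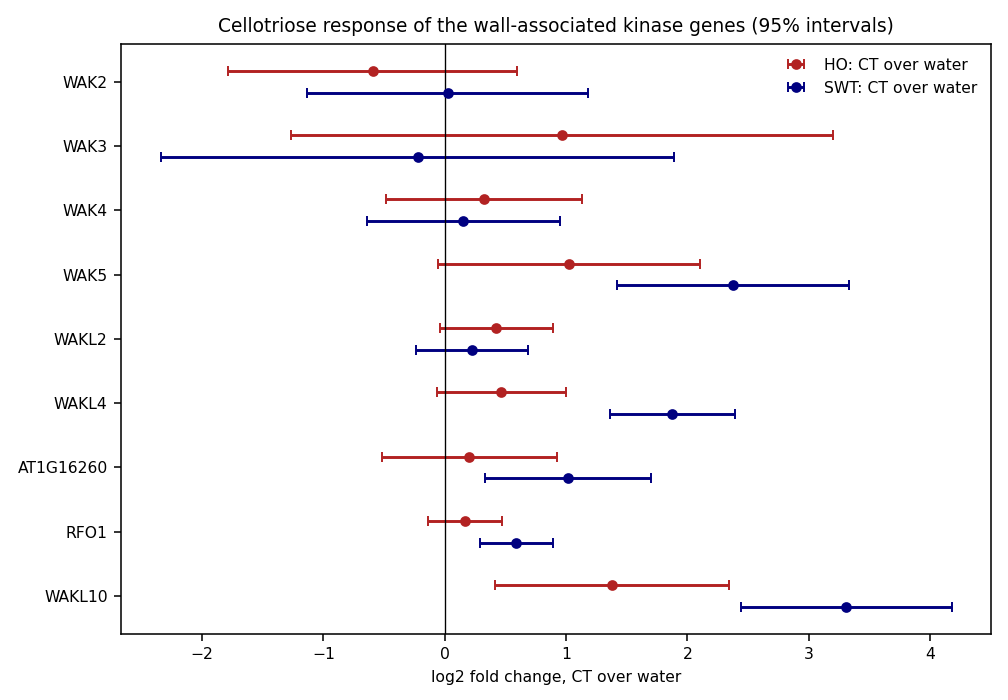
Response of 9 of the 10 genes to CT in HO (red) and SWT (blue), as the log2 fold change of CT over water with 95% intervals. In SWT the intervals of WAK5, WAKL4, AT1G16260, RFO1 and WAKL10 lie above 0, and in HO that of WAKL10 alone does. WAK1, with group levels of 0.70 to 4.17 normalized counts, is not plotted.

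In HO 0 of the 10 members were called by the DESeq2 Wald test, where 0.00866% of all genes were called higher. At an unadjusted p below 0.05 there was 1 member higher, against 1.28% of all genes. Of 9 estimates, without WAK1, 8 were above 0, and their median was 0.43, against −0.01 over all genes. These estimates share the same HO libraries, so they are not separate observations, and no test was made of their direction. The intervals leave room for a response: the upper bound of the 95% interval was a 1.995-fold rise for WAKL4, 4.30-fold for WAK5, 5.06-fold for WAKL10, 1.90-fold for AT1G16260 and 1.39-fold for RFO1. The direct test of the difference between HO and SWT was passed by WAKL4, and WAKL10 was the other member with an unadjusted p below 0.05, a threshold that 7.83% of all genes passed with the smaller response in HO.

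In water all 9 members other than WAK1 had a lower estimate in HO than in SWT, and for 7 of the 9 the 95% interval reached above 0. None of the 10 members passed the test after adjustment, where 0.113% of all genes were called lower. At an unadjusted p below 0.05 there were 2 members lower, against 3.42% of all genes. WAKL10 had a log2 fold change of HO over SWT of −1.52 (SE 0.49, Wald test, unadjusted p = 0.00187, adjusted p = 0.375), which puts the HO level at 34.9% of the SWT level. WAKL4 had −0.63 (SE 0.27, unadjusted p = 0.0190, adjusted p = 0.891). The remaining 7 estimates ran from −1.11 for WAK3 to −0.03 for WAK2, with WAKL2 at −0.46 (SE 0.24), RFO1 at −0.18 (SE 0.16) and AT1G16260 at −0.23 (SE 0.37). The median over the 9 members was −0.63, against 0.00 over all genes. These estimates come from the same 6 libraries. The SWT libraries in water also enter the SWT response, and the HO libraries in water also enter the HO response. A low level in HO in water would lower the estimate in water and raise the HO response together, so the comparison in water is independent of neither response.

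With CT, the level of WAKL10 in HO was 9.15% of that in SWT, that of WAK5 20.8% and that of WAKL4 24.3%. The log2 fold changes of HO over SWT were −3.45 (SE 0.45) for WAKL10, −2.26 (SE 0.49) for WAK5 and −2.04 (SE 0.26) for WAKL4, and these 3 of 10 members were called lower by the z test, where 2.99% of all genes were. Without the fold criterion AT1G16260 (−1.04, SE 0.35, adjusted p = 0.0262) and RFO1 (−0.60, SE 0.15, adjusted p = 0.00171) were lower as well, which makes 5 of 10 against a background of 9.00%. The same 5 genes rose with CT in SWT, and both comparisons use the SWT libraries with CT. For WAK5 the adjusted p was 0.0511 when the statistics were first divided by their spread over all genes, and its call was lost. AT1G16260 and RFO1 had weaker statistics in this comparison (−2.98 and −3.87, against −4.66 for WAK5). Under that setting they were therefore above an adjusted p of 0.05 too, so their lower level depends on the test used. Without the fold criterion 4 of the 5 shoot markers were higher in HO than in SWT with CT. The log2 fold changes were 0.66 to 0.83 among those 4. By this rule 988 of 23103 genes were higher, and with the fold criterion 0 shoot markers were called. The part of the shoot markers in the differences of the WAK genes was not tested.

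**Figure D4:**
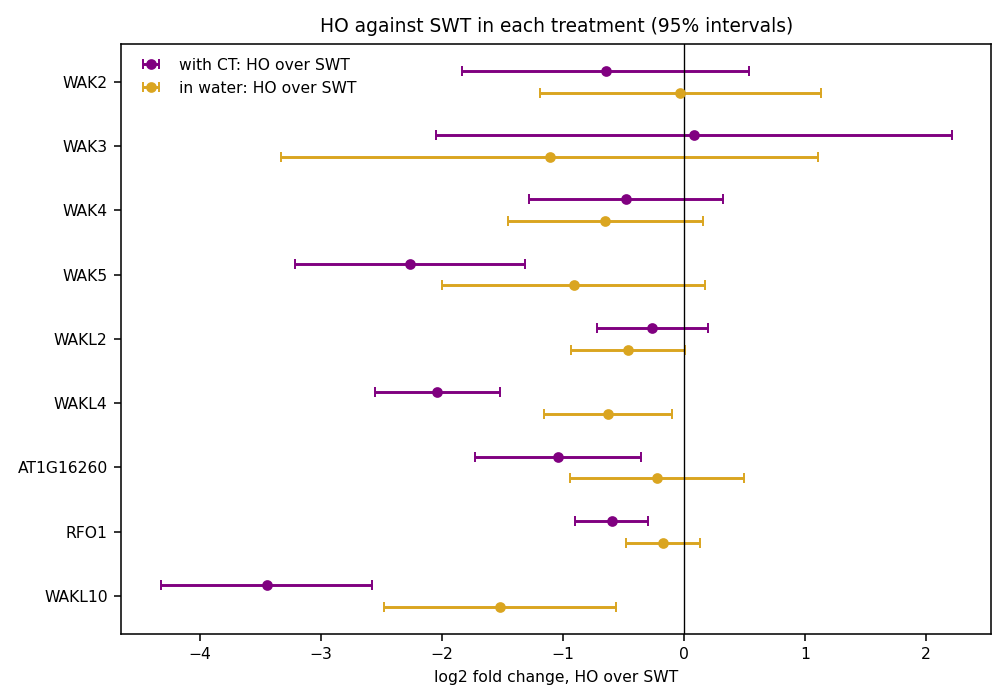
HO over SWT with CT (purple) and in water (yellow) for 9 of the 10 genes, WAK1 left out for its low counts, as log2 fold changes with 95% intervals. With CT the intervals of WAK5, WAKL4, AT1G16260, RFO1 and WAKL10 lie below 0. In water all 9 points are below 0, and the intervals of WAKL4 and WAKL10 do not reach it.

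HO roots with CT were set beside SWT roots in water as a description chosen after the values were seen. The log2 ratio of HO with CT over SWT in water was −0.14 (95% interval −1.05 to 0.76) for WAKL10, 0.11 (−0.90 to 1.12) for WAK5, −0.17 (−0.69 to 0.36) for WAKL4, −0.03 (−0.74 to 0.69) for AT1G16260 and −0.01 (−0.31 to 0.30) for RFO1. The interval of each of these 5 genes includes 0. For RFO1, WAKL4 and AT1G16260 it leaves out a change of 2-fold in either direction, and for WAKL10 and WAK5 it does not.

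Per kilobase of exon the order of the members differed between groups. RFO1 was highest in all 4 groups, with 444 normalized counts per kilobase in HO with CT, 395 in HO in water, 672 in SWT with CT and 446 in SWT in water, and its interval overlapped that of no other member. In HO with CT, HO in water and SWT in water WAKL4 and WAKL2 followed with overlapping intervals, and WAK4 came next, below both. In SWT with CT the order was RFO1, WAKL4 (336 per kilobase), WAKL10 (175), WAKL2 (86.0), WAK5 (37.4), WAK4 (36.2) and AT1G16260 (28.0). There WAKL10 stood above WAKL2, and their intervals did not overlap. WAKL10 had 16.0 per kilobase in HO with CT, 6.17 in HO in water and 17.7 in SWT in water, and stood below WAK4 in each of these groups, although the intervals of WAKL10 and WAK4 overlapped in HO with CT and in SWT in water. WAK2, WAK3 and WAK1 were the lowest 3 in SWT with CT, and from WAK2 downwards neighbours did not differ beyond their intervals in any group. The levels of the 10 genes summed to 1682 in HO with CT, 1403 in HO in water, 3498 in SWT with CT and 1751 in SWT in water, of which RFO1 made up 64.3%, 68.6%, 46.8% and 62.1% in the same order.

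Of 15 other WAK-like genes 11 had a row in the tables, and in SWT 1 was called higher (2.58% of all genes were), 4 rose without the fold criterion (8.30% of all genes did) and 0 fell. WAKL5 (AT1G16160), which lies 705 bases beyond WAKL4 in the same array, had a level of 126 in HO with CT, 103 in HO in water, 489 in SWT with CT and 130 in SWT in water. Its log2 fold change with CT was 0.30 (SE 0.30) in HO and 1.92 (SE 0.29) in SWT, the SWT value with an adjusted p of 2.52e-09 by the Wald test, close to that of WAKL4. In the same array WAKL6, WAKL1 and WAKL2 did not pass the test in SWT, and WAKL3, which lies between WAKL2 and WAKL4, had no row and was not analysed here. WAKL7, 396 bases before WAKL6, did not pass the test either. AT5G66790 had a log2 fold change of 0.20 (SE 0.23) in HO and 1.23 (SE 0.23) in SWT (adjusted p = 2.85e-06). AT4G31110 had −0.02 (SE 0.17) in HO and 0.71 (SE 0.17) in SWT (adjusted p = 0.000517), and its neighbour AT4G31100 had −0.16 (SE 0.18) in HO and 0.58 (SE 0.18) in SWT (adjusted p = 0.0129). With a t distribution of 8 degrees of freedom the adjusted p in SWT was 0.0648 for AT4G31110 and 0.146 for AT4G31100, above 0.05. The responses of WAKL5 and AT5G66790 differed between the genotypes by the z test, by −1.62 (SE 0.42, adjusted p = 0.00501) and −1.03 (SE 0.33, adjusted p = 0.0420). With a t distribution these adjusted p-values were 0.217 and 0.357, and both calls were lost. With the statistics divided by their spread, AT5G66790 had an adjusted p of 0.138 and also lost its call. With CT, 5 of the 11 genes were lower in HO by the z test without the fold criterion (9.00% of all genes were). Of these WAKL5 alone passed the fold criterion (2.99% of all genes did). The others were AT5G66790, AT4G31110, AT4G31100 and AT2G23450 (−0.39, SE 0.13, adjusted p = 0.0319). AT4G31110, AT4G31100 and AT2G23450 had weaker statistics than WAK5. They were therefore above an adjusted p of 0.05 with the statistics divided by their spread. AT2G23450 had a log2 fold change for CT in SWT of 0.37 (SE 0.13, Wald test, adjusted p = 0.0538).

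**Figure D5:**
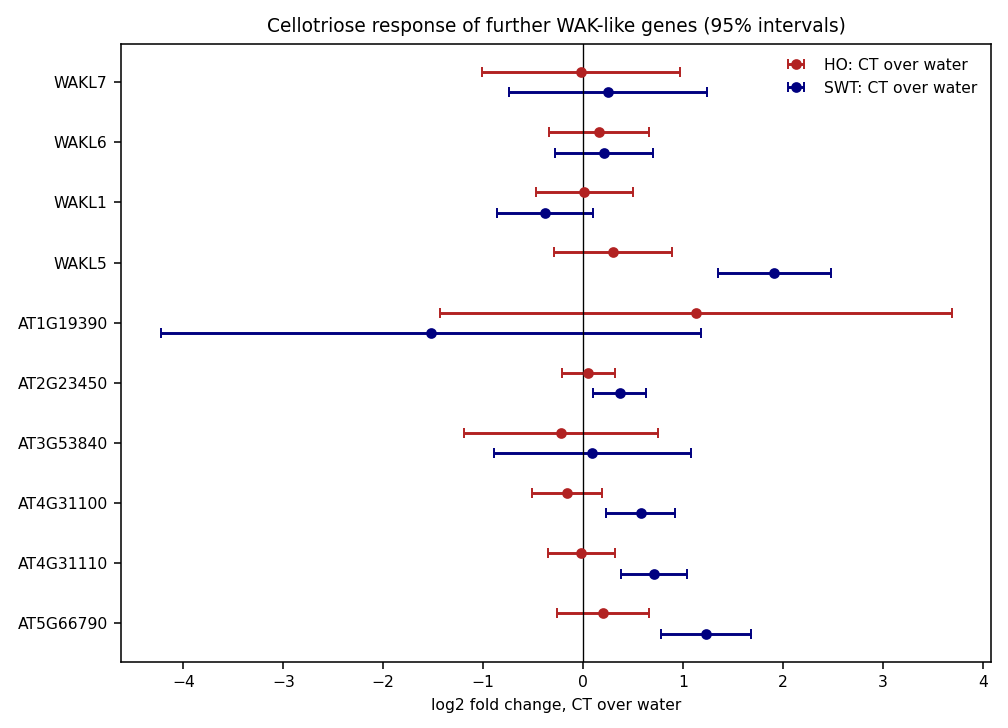
Response of 10 of the 11 other WAK-like genes to CT in HO (red) and SWT (blue), AT1G69730 left out for its low counts, as the log2 fold change of CT over water with 95% intervals. In SWT the intervals of WAKL5, AT5G66790, AT4G31110 and AT4G31100 lie above 0. The SWT interval of AT2G23450 does too, at 0.10 to 0.63, although that gene did not pass the adjusted test. All 10 intervals in HO include 0.

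A list of 14 genes that act with WAKs or in the perception and breakdown of pectin was followed as well. Of these 13 had a row, and in SWT 3 rose and 0 fell, against 8.30% of all genes that rose, with 1 past the fold criterion, against 2.58%. This was AT4G20830, a berberine-type oxidase known to oxidise oligogalacturonides. Its level was 2060 in HO with CT, 1983 in HO in water, 8241 in SWT with CT and 2121 in SWT in water. CT over water was 0.06 (SE 0.15) on the log2 scale in HO, and in SWT it was a rise of 3.88-fold (adjusted p = 1.98e-35), and the difference between the responses was −1.90 (SE 0.21, z test, adjusted p = 7.50e-16). It overlaps AT4G20835 on the opposite strand, and its counts are uncertain. MPK6, a MAP kinase activated downstream of oligogalacturonides, had a log2 fold change of −0.01 (SE 0.10) in HO and 0.35 (SE 0.10) in SWT (adjusted p = 0.00771), and NP2, a MAP kinase kinase kinase, −0.02 (SE 0.24) in HO and 0.70 (SE 0.24) in SWT (adjusted p = 0.0312). With a t distribution of 8 degrees of freedom the adjusted p in SWT was 0.125 for MPK6 and 0.193 for NP2, above 0.05. MPK6 also overlaps genes on the opposite strand. With CT, HO was below SWT for the same 3 of 13 genes, where 9.00% of all genes were lower without the fold criterion. The HO level of AT4G20830 was 25.0% of the SWT level. By the z test the log2 fold change was −0.28 (SE 0.10, adjusted p = 0.0447) for MPK6 and −0.69 (SE 0.24, adjusted p = 0.0327) for NP2. Their statistics (−2.76 and −2.89) were weaker than that of WAK5 (−4.66). With the statistics divided by their spread over all genes, MPK6 and NP2 were therefore above an adjusted p of 0.05. The other 10 genes, among them the glycine-rich protein GRP-3 that binds WAK1, the phosphatase KAPP and the receptor kinase FERONIA (FER), did not pass the test in any comparison. In HO 0 of the 13 genes passed the test, and 0 had an unadjusted p below 0.05 by the Wald test.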

How the data were processed

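RNA was extracted from roots in 12 libraries, with 3 in each of 4 groups placed by the treatment and genotype in their labels. Per the labels, the authors aligned reads with STAR 2.7.10a to TAIR10, counted them with featureCounts 2.0.1 and fitted DESeq2 1.34.0. The strand setting of the counting was not stated. The authors deposited 3 tables of 23106 genes, for CT over water in SWT, CT over water in HO, and HO over SWT in water. The deposited signal is a mean normalized read count over all libraries, identical in the 3 tables. The log2 fold change and its log2 SE, the score (Wald statistic), the p-value and the adjusted p-value are also those of the authors. Because the tables hold no values per library, these fitted results were used as the data. All tests for the 3 tabulated comparisons are therefore the Wald tests of the authors, and depth per library is unknown.

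The difference between responses (HO minus SWT) was tested by a two-sided z test. For HO over SWT with CT the difference in water was added to the HO response and the SWT response was subtracted, with the sum of the variances of both responses less that of the water difference as its variance. Both were adjusted by the Benjamini-Hochberg method over 23103 genes. A call was an adjusted p below 0.05 and a change of at least 2.51-fold, or the adjusted p alone for the difference between responses. Group means and their 95% intervals followed from the mean count, the fold changes and the dispersion that the SEs imply. Dispersions from the 3 tables agreed within 0.66% for the members. The recovery of group means and dispersions and the z tests were run on simulated data. The SEs of those data were built with the formula that the recovery inverts, so they could not show an error in that formula. The sequence steps, the order per kilobase of exon and the alternative settings were not simulated. These intervals and p-values take the fit of the authors as given and rest on the spread between libraries as that fit modelled it. Nothing says whether replicates were separate experiments.

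All 10 members are named, of the 2 further gene lists every gene with an adjusted p below 0.05 in any comparison, and CORK1 as the targeted gene. WAKL7, WAKL6, WAKL3, WAKL1, GRP-3, KAPP and FER are named beside that rule. Members and lists were chosen with earlier results of these data known. Gene models, names and sequence came from TAIR10.1 (RefSeq), matched by locus identifier, and sequences were compared in Python 3.11.15 with Biopython 1.88. Protein identity was replaced by identity of the coding sequences, from global alignment.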

Additional observations from a re-analysis of the deposited data

Results flagged for a closer look

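The response to CT differed between the genotypes by the z test, after adjustment over 23103 genes, for 4 of the genes named. The HO response minus the SWT response on the log2 scale was −1.41 for WAKL4, −1.62 for WAKL5, −1.03 for AT5G66790 and −1.90 for AT4G20830. The adjusted p was 0.00795 for WAKL4, 0.00501 for WAKL5, 0.0420 for AT5G66790 and 7.50e-16 for AT4G20830. Over all genes 3.31% had a smaller response in HO by this test. With a t distribution of 8 degrees of freedom the adjusted p was 0.241 for WAKL4, 0.217 for WAKL5 and 0.357 for AT5G66790, and these calls were lost. AT4G20830 kept its call, with 0.0225.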

How the results depend on the processing

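No paired analysis was possible because the tables hold no values per library, and leaving out each replicate was not run for the same reason. Protein identity was not run, WAK1 has no adjusted p in SWT, and requiring a mean count of at least 50 left no value for WAK1, WAK2, WAK3, WAK5 and AT1G16260. No called result changed direction under the alternatives run. The genes called in all numbered 615 for CT in SWT, 2 for CT in HO, 30 for HO over SWT in water, 913 for the difference between responses and 745 for HO over SWT with CT. Without the fold criterion there were 2508 for CT in SWT and 3068 for HO over SWT with CT, with 5 members in each. Tested against the fold criterion itself, there were 139 for CT in SWT with 1 member, 0 for CT in HO, 4 in water, 33 for the difference with 0 members and 181 with CT with 1 member; the member left was WAKL10. At an adjusted p below 0.01 there were 0 for CT in HO, 18 in water and 578 for the difference. With a t distribution of 8 degrees of freedom there were 0 for CT in HO, 1 in water, 89 for the difference with 0 members and 494 with CT. With statistics divided by their spread there were 32 for CT in HO, 586 for the difference and 457 with CT. Unadjusted p-values below 0.05 numbered 428 for CT in HO and 2759 for the difference, 2 of them members. The cause of these changes was not tested, beyond the stricter or looser rule itself. Moving the water difference to its 95% bounds moved 15 of 80 recovered levels by more than 1 SD between replicates, as the fit implies it. All of them were in HO, and none was a level of RFO1, WAKL2, WAK2, WAK3 or WAK4. At the upper bound the level in water was higher in HO than in SWT for all members but WAKL4 and WAKL10, with WAK1 left aside. This follows directly from the 95% intervals in water given above and is no separate result. The few reads of WAK1, WAK2 and WAK3 limit what can be said of them.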
